A study of Mus musculus with 12 samples.

Results

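The 2 drugs in this mouse experiment were given alone and together, so that the action of RCM1 can be read from all 12 tumors at the same time: 6 tumors from mice given RCM1 nanoparticles were set against 6 tumors from mice not given them, with vincristine as a term. Titles gave each tumor its group, and the comparison used 12 of the 12 tumors of the series. Each tumor grew in the flank of a wild-type C57Bl/6J mouse from injected Rd76-9 cells, a mouse rhabdomyosarcoma line, and was taken 16 days after inoculation. The mice were 8 to 12 weeks old when the cells were injected. The tumors without RCM1 were 3 treated with vehicle (m1, m2 and m3; saline and empty nanoparticles) and 3 treated with vincristine at 0.25 mg/kg (VCR; m4, m5 and m6). The tumors with RCM1 were 3 treated with RCM1 at 8 µg per injection in nanoparticles carrying folic acid (RCM1-NPFA; m7, m8 and m9) and 3 treated with both drugs (VCR + RCM1-NPFA; m10, m11 and m12). The treatment label of the vehicle group also names the RCM1 nanoparticle, whereas its title, the series' design text and the study's methods describe empty nanoparticles, and the latter were followed. Sequencing depth was even, between 29342195 and 32108055 estimated counts per tumor, with a median of 31354944 with RCM1 and 31139534 without. No litter, cage or sequencing batch is given, so the p-values below measure only the spread between these tumors.

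RCM1 is a small molecule that inhibits FOXM1, a forkhead transcription factor that dividing cells use to switch on the genes of late G2 and mitosis. FOXM1 works on many of these genes together with the MuvB complex and B-MYB at a promoter element called the cell cycle genes homology region, whose usual letters are TTTGAA or TTTAAA, while the factor NF-Y binds the neighbouring CCAAT boxes. Because RCM1 acts on FOXM1 protein, its own transcript need not change, and the transcripts of its target genes are the closer readout. The nanoparticles carry folic acid because folate receptors on a cell's surface can take them up. Rhabdomyosarcoma is a tumor of cells that express muscle regulators but do not complete muscle differentiation, and vincristine is a microtubule poison that arrests cells in mitosis.

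The promoters of *Top2a* (topoisomerase II alpha, which untangles DNA before division) and *Mki67* (the proliferation antigen Ki-67) are shown, since these were the most abundant of the mitotic genes and show what a gene of this program carries at its start. Each is 300 bases of RefSeq's GRCm38.p6, from 250 before to 50 after the transcript start of the promoter table (which need not be the outermost base of the gene), on the minus strand at chr11:99024140-99024439 and chr7:135716330-135716629. Capitals mark TTTGAA and CCAAT on either strand (read as TTCAAA and ATTGG on the other), and TTTAAA does not occur in these windows.
Top2a: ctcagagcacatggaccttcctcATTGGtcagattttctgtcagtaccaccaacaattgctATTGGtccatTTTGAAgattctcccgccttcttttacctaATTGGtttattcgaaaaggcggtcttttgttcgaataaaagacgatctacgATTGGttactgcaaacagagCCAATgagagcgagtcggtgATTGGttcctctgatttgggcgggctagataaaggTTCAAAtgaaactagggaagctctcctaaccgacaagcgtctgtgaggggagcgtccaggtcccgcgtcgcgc
Mki67: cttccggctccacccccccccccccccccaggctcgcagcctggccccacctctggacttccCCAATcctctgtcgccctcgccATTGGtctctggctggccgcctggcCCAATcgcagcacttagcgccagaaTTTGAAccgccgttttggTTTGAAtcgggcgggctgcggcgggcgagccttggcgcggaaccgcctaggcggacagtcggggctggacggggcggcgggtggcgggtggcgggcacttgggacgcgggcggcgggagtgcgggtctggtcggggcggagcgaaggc
The *Top2a* window held 2 copies of TTTGAA and 6 of CCAAT, and the *Mki67* window 2 and 3. Of 27025 RefSeq promoters of this length, 27.8% held TTTGAA or TTTAAA and 37.9% held CCAAT. Among the 20 mitotic genes of the list used here that had an entry, 16 held TTTGAA or TTTAAA and 18 held CCAAT, and 14 held 2 or more copies of CCAAT, against 12.2% of all promoters. Both motifs together were found in 14 of the 20 and in 10.9% of all promoters. A match of letters is a description and not a bound site.

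The tumors were first checked against their label. Among the regulators of the muscle lineage, *Myf5* (which commits cells to the myoblast fate) was found in every tumor, at a mean of 47.0 TPM (a level per transcript length, deposited by the authors), between 38.8 and 59.9. *Myod1* and *Myog*, whose proteins are used to diagnose rhabdomyosarcoma, were close to 0 in vehicle-treated tumors, with means of 0.0102 and 0.038 TPM, and reached at most 2.19 TPM in m9 and 2.44 TPM in m4. *Pax7*, a satellite cell factor, had a mean of 0.0225 TPM. *Myf6*, a factor of later muscle differentiation, had a mean of 0.569 TPM with vehicle and reached 20.3 TPM in m9 and 13.7 TPM in m5. *Des* (desmin, the muscle intermediate filament, also made by smooth muscle) had 5.37 TPM with vehicle and reached 317 TPM in m9 and 217 TPM in m5. Of these genes *Myf5* was the one at a similar level in every tumor, and the other factors were low in vehicle-treated tumors. *Foxm1* itself was well expressed, at a mean of 60.9 TPM between 50.5 and 68.7, with 2640 genes above it.

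Over both vincristine settings, no gene could be called higher or lower with RCM1-NPFA. At the threshold of 0.1 for the adjusted p-value, edgeR's quasi-likelihood test called 0 of 17602 genes (0% of those tested), and no adjusted p-value was below 1. Before adjustment 338 genes had a p-value under 0.05 (1.92%), 138 higher (0.784%) and 200 lower (1.14%) with RCM1. Limma-voom and the DESeq2 Wald test also found 0 genes, with 341 and 328 genes at an unadjusted p-value under 0.05. The count stayed at 0 when each tumor was left out in turn, when the tumors m5 and m9 were left out together, and when a term was added for muscle RNA or for Y-linked transcripts. Without the vehicle tumor m1, 643 genes had an unadjusted p-value under 0.05.

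The fit also shows how large a shift the 12 tumors leave room for. The typical gene differed by 0.07 on the log2 scale in either direction, beside a median standard error of 0.12. Of 9982 genes with a mean of at least 10 CPM (estimated counts scaled to library size), 9821 (98.4%) had a 95% confidence interval that lay wholly between -1 and 1, and for 9431 (94.5%) it lay between -0.5 and 0.5. Over all 17602 genes, including those of low count, these were 15517 (88.2%) and 11499 (65.3%). A log2 change of 1 by RCM1 across both settings was thus outside the interval of most well expressed genes, taken gene by gene and without correction for their number.

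*Foxm1* (chromosome 6 of GRCm38, 128362994 to 128375886) did not differ beyond its spread. Its level was 139, 168 and 143 CPM in vehicle-treated tumors and 167, 172 and 168 CPM after VCR. It was 148, 179 and 167 CPM after RCM1-NPFA and 172, 171 and 151 CPM after VCR + RCM1-NPFA. The tumors with and without RCM1 covered nearly the same range, with the lowest value in a vehicle tumor and the highest in a RCM1-NPFA tumor. The log2 fold change was 0.05 (standard error 0.069, 95% interval -0.10 to 0.20). In an exact permutation test that moved the RCM1 label within each vincristine setting (400 arrangements, smallest possible p = 0.005), the two-sided p was 0.515, or 0.644 after adjustment over the 5 genes tested in this way.

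The FOXM1 and mitotic target genes differed as little as their regulator. None of the 26 genes had an unadjusted p-value under 0.05 in edgeR's test over both settings, against 1.92% of all genes, and 0 were called. Their median log2 fold change was 0.02 (-0.02 to 0.06 with each tumor left out), beside 0.00 over all genes, and the values ran from -0.05 for *Ube2c* (the mitotic ubiquitin-conjugating enzyme) to 0.10 for *Mki67*. The 95% intervals of the 26 genes reached no lower than -0.24 and no higher than 0.32. For *Mki67* the exact permutation p was 0.4 (0.644 adjusted over the 5 genes). Among the kinases that drive entry into mitosis, the log2 fold change was 0.07 for *Plk1*, 0.02 for *Aurka*, -0.01 for *Aurkb* and 0.01 for *Cdk1*. Of the cyclins and their partners, *Ccnb1* had -0.01, *Ccna2* 0.03 and *Cdc25b* -0.01, each with an interval that spanned 0. The summed level of the list was 3819.6, 4285.9 and 3428.2 CPM with vehicle, 3693.3, 4151.0 and 3934.2 with VCR, 3530.6, 4414.1 and 3879.3 with RCM1-NPFA, and 4072.4, 4062.1 and 3715.7 with both drugs. The highest of these 12 sums and the lowest but 1 were both RCM1-NPFA tumors, and the groups overlapped.

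The small differences of the mitotic genes did not point the same way in the 2 vincristine settings. Without vincristine their median was 0.10, and on top of vincristine -0.06, and 3 of the 26 genes had the same sign in both (34.9% of all genes did). *Aurka*, the kinase of the spindle poles, had 0.24 without vincristine and -0.19 on top of it. *Plk1* had 0.24 and -0.10, and *Birc5* (survivin, of the chromosomal passenger complex) 0.24 and -0.14. *Top2a* and *Hmmr*, a spindle protein, went the other way, with -0.18 and 0.16, and -0.06 and 0.22. For *Cdc20*, the activator of the anaphase-promoting complex, all 3 RCM1-NPFA tumors (170, 187 and 168 CPM) were above the vehicle tumors (160, 163 and 159 CPM), and all 3 tumors with both drugs (165, 180 and 172 CPM) were below those with VCR (189, 217 and 183 CPM). Of the 26 genes, 6 had an unadjusted interaction p-value under 0.05 in edgeR's test, against 13.8% of all genes. None of them passed adjustment. The list of DNA replication genes, the helicase and polymerase factors of S phase, had a median of 0.07 over both settings with 18 of 22 genes above 0, and 0 had an unadjusted p-value under 0.05. With each tumor left out in turn that median ran from -0.0065 to 0.12.

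**Figure D1:**
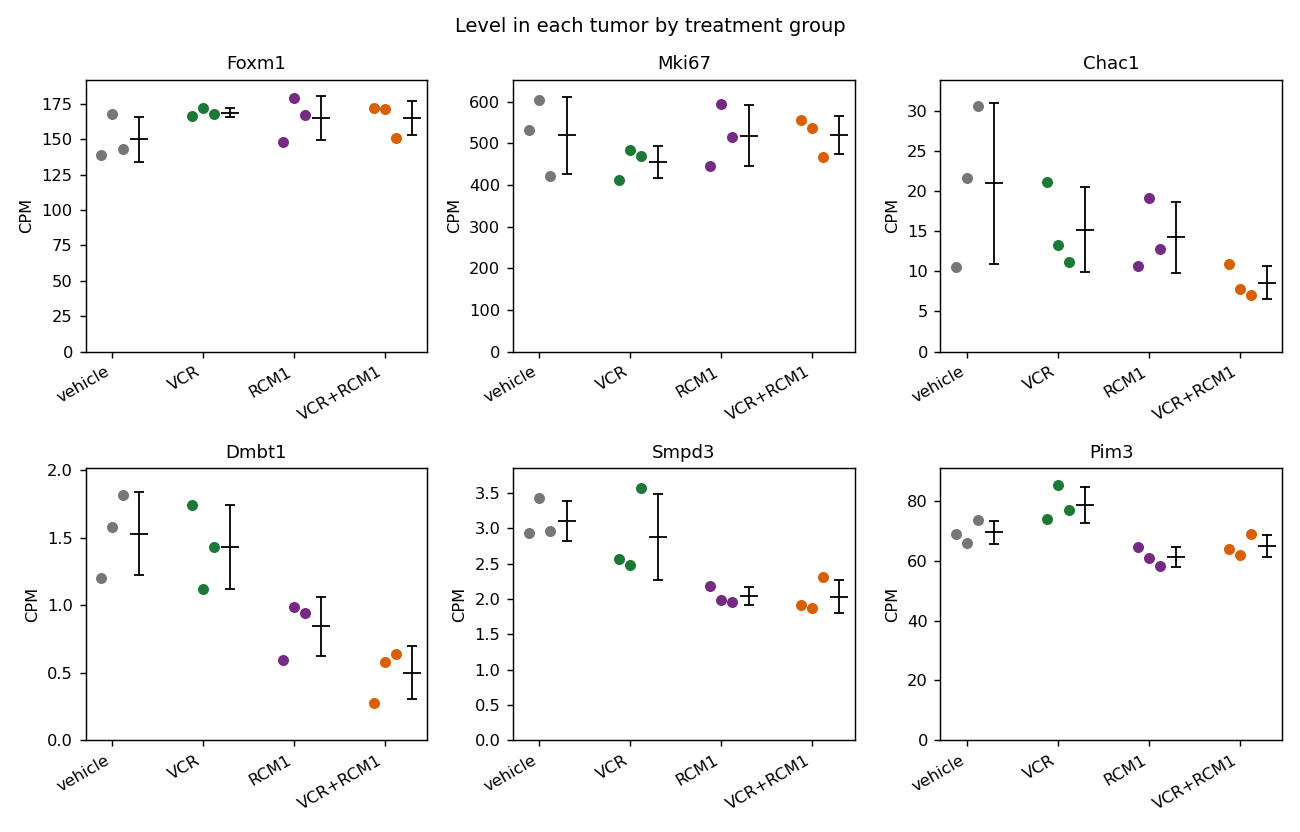
Level of *Foxm1*, *Mki67*, *Chac1*, *Dmbt1*, *Smpd3* and *Pim3* in each tumor, in CPM from 0, by treatment group; each dot is 1 tumor, and the bar beside the dots is the mean ± SD of the 3 tumors. *Foxm1* and *Mki67* overlap between all groups, *Chac1* has its lowest mean with both drugs (7.01 to 10.9 CPM) and overlaps there with vehicle and RCM1-NPFA but not with VCR, and every RCM1 tumor is below every other tumor for *Dmbt1* and *Smpd3*.

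*Chac1*, an enzyme that breaks down glutathione and is induced by the stress factor ATF4, was lower with RCM1 in both settings, but the difference did not pass the test over all genes. It lies on chromosome 2 (119351242 to 119354326). Its mean was 18.1 CPM without RCM1 and 11.4 CPM with RCM1, and the tumors of the arms overlapped: 1 vehicle tumor had 10.5 CPM, below 4 of the 6 RCM1 tumors. Among tumors given vincristine the 3 with both drugs were all below the 3 with VCR. As a log2 fold change this was -0.69 (standard error 0.26, 95% interval -1.24 to -0.13), and edgeR's p was 0.0193 before and 1 after adjustment. It was -0.56 without vincristine and -0.82 on top of vincristine, and the difference between these had an unadjusted p of 0.62. The exact permutation p was 0.07, or 0.35 after adjustment over the 5 genes. The other 15 tested genes of the glutathione list had no unadjusted p-value under 0.05, and none reached the size of *Chac1*. *Gclc*, the catalytic subunit of the rate-limiting enzyme of glutathione synthesis, had -0.03, *Gpx4*, which reduces lipid peroxides, -0.10, and *Slc7a11*, the cystine transporter, -0.02. Of the 20 ATF4 stress response genes 17 were below 0 over both settings, with a median of -0.11 and *Chac1* as the 1 gene with an unadjusted p-value under 0.05 (1.14% of all genes were lower at this level). *Atf4* itself had 319, 424 and 496 CPM with vehicle, more than any RCM1 tumor in 2 of the 3 tumors, and the median of the list without m3 was 0.02.

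Among the genes with the smallest unadjusted p-values and the same sign in both settings, the largest differences were toward lower levels with RCM1. The genes were picked in these same tumors, so arms that do not overlap and steady fold changes are partly a product of that choice. *Dmbt1*, a secreted scavenger receptor of mucosal surfaces (chromosome 7, 131032057 to 131121628), had 1.20, 1.58 and 1.81 CPM with vehicle and 1.75, 1.12 and 1.43 CPM with VCR. It had 0.60, 0.99 and 0.94 CPM with RCM1-NPFA and 0.27, 0.58 and 0.64 CPM with both drugs. Every RCM1 tumor was thus below every tumor without RCM1, at a low level throughout. Its log2 fold change was -1.18 (standard error 0.24, unadjusted p = 0.0004, adjusted p = 1 in edgeR's test), and leaving out each tumor in turn gave -1.28 to -1.02. *Smpd3* (neutral sphingomyelinase, which releases ceramide from membranes; chromosome 8, 106252548 to 106337965) lay between 2.48 and 3.57 CPM without RCM1 and between 1.88 and 2.31 CPM with it, again without overlap. Its log2 fold change was -0.55 (standard error 0.13). *Slpi*, an inhibitor of neutrophil elastase, had the lowest fold change of these genes, -1.72 (standard error 0.42), but the tumors overlapped: m4 and m5 had 6.76 and 3.14 CPM, and all other tumors between 0.29 and 1.06 CPM. Its log2 fold change with each tumor left out in turn lay between -1.90 and -1.25. *Pim3*, a kinase that promotes survival (chromosome 15, 88862194 to 88865726), had a better measured level, at 66.0 to 85.3 CPM without RCM1 and 58.2 to 69.0 CPM with it, and a log2 fold change of -0.23 (standard error 0.053). Within each vincristine setting its RCM1 tumors were below the others, but across settings they overlapped.

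The other lower genes of this group were *Phlda1* (-0.51), whose product restrains growth signals, *Slc38a2* (-0.20), a sodium-coupled transporter of neutral amino acids, *Flrt2* (-0.28), a membrane protein of cell adhesion and guidance, *Akirin1* (-0.22), a nuclear cofactor, *Pkd2l2* (-0.61), a channel of the polycystin family, and *Dnd1* (-0.49), an RNA-binding protein of germ cells. *Slc38a2* had 212 to 257 CPM without RCM1 and 200 to 234 CPM with it. *Phlda1* had 36.0 to 52.1 CPM without RCM1 and 19.1 to 37.7 CPM with it. The arms overlapped for both genes.

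The largest difference among the 10 leading genes on the higher side, that of *Dchs2*, was smaller than those of *Slpi* and *Dmbt1* on the lower side. *Plekhg3*, an exchange factor for small GTPases (chromosome 12, 76533303 to 76580489), had 58.9 to 64.1 CPM without RCM1 and 64.3 to 71.3 CPM with it. The arms did not overlap, though the log2 fold change was only 0.14 (standard error 0.041). *Card6*, a caspase recruitment domain protein, had 0.21 (standard error 0.057), with 19.8 to 23.8 CPM without and 23.5 to 25.3 CPM with RCM1. *Bmf*, a BH3-only protein that promotes apoptosis, had 0.34 (standard error 0.11), with the same value in each setting. *Slc2a3* (the glucose transporter GLUT3) had 0.23, *Fgr* (a Src family kinase of myeloid cells) 0.36, *Nab1* (a corepressor of EGR factors) 0.18, *Mink1* (a STE20 kinase) 0.15 and *Slc22a21* (a carnitine transporter) 0.27. *Dchs2*, a large protocadherin, had 0.54 at 1.08 to 2.27 CPM, and *Gm3002*, a transcribed pseudogene whose reads may be shared with near copies, had 0.38. Because these 20 genes were picked by their p-values and their same sign in both settings, the small p-values are not a result. The same holds for the separation of their arms and for their steady values with each tumor left out. None passed the test over all genes.

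**Figure D2:**
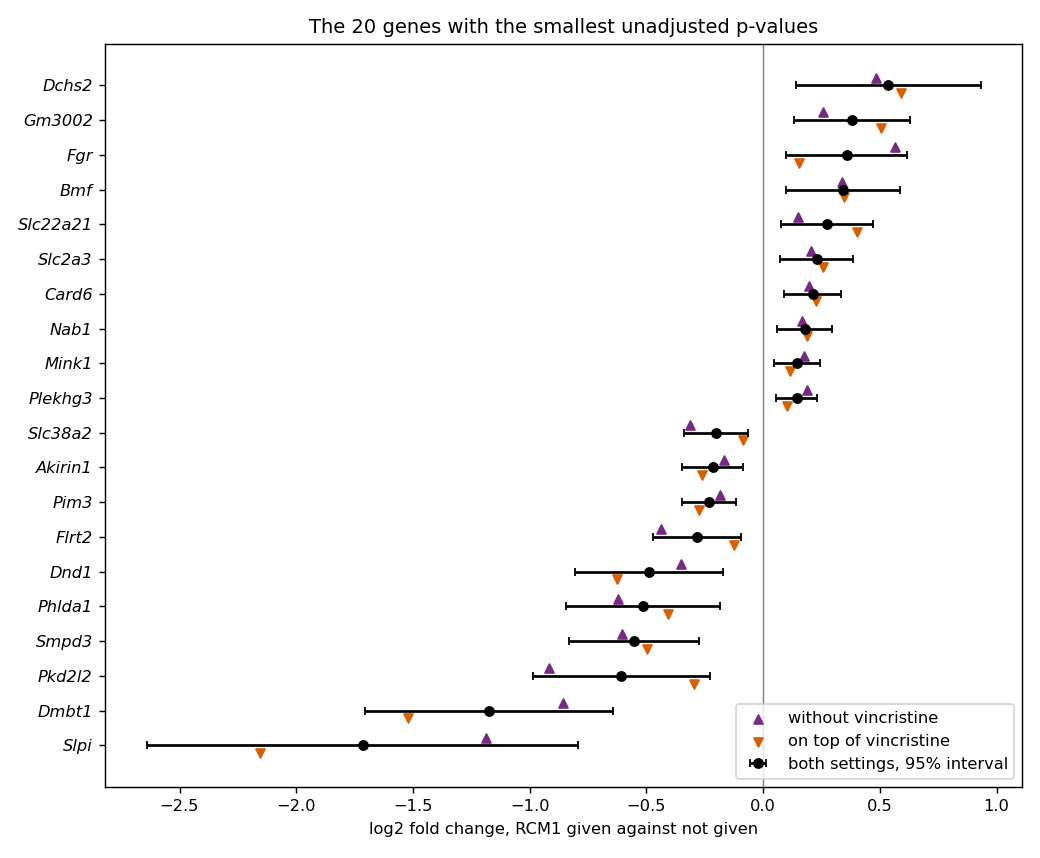
Log2 fold change of the 20 leading genes, RCM1 given against not given: black points are both settings with a 95% confidence interval, triangles pointing up are RCM1-NPFA against vehicle, and triangles pointing down are VCR + RCM1-NPFA against VCR. *Slpi* (-1.72) and *Dmbt1* (-1.18) lie farthest below 0 and *Dchs2* (0.54) farthest above, and none of the genes passed adjustment.

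A complete separation of the arms was rare. In 3 genes (0.017% of those tested) all 6 RCM1 tumors were above all 6 others, and in 7 genes (0.0398%) all were below. The 3 were *Plekhg3*, *Gm15401* and *Mir3101*, and the latter 2 had means of only 0.49 and 0.44 CPM. The 7 were *Dmbt1*, *Smpd3*, *Mrap2* (a partner of melanocortin receptors), *H2ac13* (a histone H2A gene), *Gm34121*, *4632427E13Rik* and *Gm19448*. These genes other than *Dmbt1*, *Smpd3* and *Plekhg3* were picked after their values were seen. Some genes separate by chance alone, and whether the number seen exceeds that was not tested, so separation is not read as an effect of RCM1. When separation was asked only within each vincristine setting, 32 genes (0.182%) were apart in the same direction, 10 higher (0.0568%) and 22 lower (0.125%) with RCM1. In the opposite direction 296 genes (1.68%) were apart, 119 higher without vincristine and lower on top of it (0.676%), and 177 the reverse (1.01%).

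Genes apart in opposite directions were thus more numerous than those apart in the same direction. RCM1-NPFA against vehicle and VCR + RCM1-NPFA against VCR share no tumor, so their fold changes can be set side by side. Across the 17602 genes Pearson's r was -0.457 and Spearman's rank correlation -0.374, and 34.9% of genes had the same sign in both. Genes are not independent replicates, all came from the same 12 libraries, and no p is given. Among the 13080 genes with a mean of at least 50 counts r was -0.615. The value depended on the 2 tumors with most muscle RNA: it was -0.193 without m5, -0.267 without m9 and -0.190 without both, and with the other tumors left out in turn it lay between -0.540 and -0.336.

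**Figure D3:**
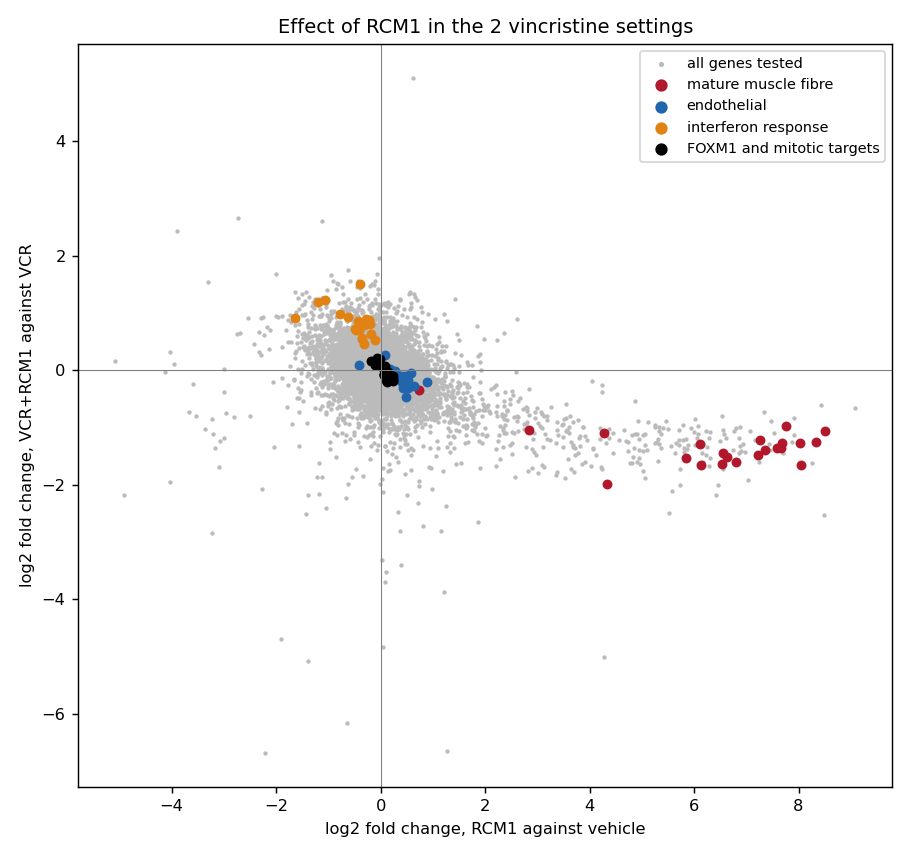
Log2 fold change of each of the 17602 genes by RCM1 without vincristine (x axis) against its fold change by RCM1 on top of vincristine (y axis); coloured points are the members of 4 gene lists. Mature muscle fibre genes lie far to the right and below 0, interferon response genes to the left and above 0, endothelial genes mostly right and below 0, and the mitotic genes close to the centre, with r = -0.457 across all genes.

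Within each setting the test also called no gene, but here the tools differed. Without vincristine edgeR found 0 genes at an adjusted p-value under 0.1 (0%), with a smallest adjusted p-value of 0.419 and 1722 genes at an unadjusted p-value under 0.05 (9.78%). Limma-voom found 0 genes in this and each of the next 3 comparisons, whereas the DESeq2 Wald test found 277 genes, 200 higher and 77 lower with RCM1-NPFA. Without the vehicle tumor m3 edgeR found 8 genes, and without m9 the genes at an unadjusted p-value under 0.05 were 1074. On top of vincristine edgeR found 0 genes (0%), with 926 at an unadjusted p-value under 0.05 (5.26%), and DESeq2 found 11, of which 10 were higher. The 926 genes became 390 without m5, 481 without m4, 593 without m11 and 1696 without m6. For the difference between the 2 effects, edgeR found 0 genes (0%), a smallest adjusted p-value of 0.293 and 2437 genes at an unadjusted p-value under 0.05 (13.8%). DESeq2 found 461 interaction genes, 196 with a positive and 265 with a negative value. For vincristine over both RCM1 settings edgeR found 0 genes (0%), with 1300 at an unadjusted p-value under 0.05 (7.39%), and DESeq2 found 3. Without m9 edgeR called 320 genes for vincristine and without both m5 and m9 259. These counts come from fits of different form, since both main effects were taken from a model without an interaction term and the other contrasts from the fit of 4 groups. In the fit of 4 groups the RCM1 main effect had 439 genes at an unadjusted p-value under 0.05 and 0 called, fewer than the 3 contrasts of that fit given above.

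The spread of each gene was also divided by its source. For each gene the spread of log2 CPM over the 12 tumors was divided into the RCM1, vincristine and interaction terms, each with 1 degree of freedom, and the spread within groups. The median gene had 3.14% of its variance in the RCM1 term, 7.98% in the vincristine term and 8.54% in the interaction, and 70.9% lay between tumors of the same group. RCM1 was the largest of the 3 terms in 3767 genes (21.4%), vincristine in 6737 (38.3%) and the interaction in 7098 (40.3%). A term without any effect also takes some share of the spread, so 3.14% is not the variance due to RCM1. These shares are descriptions, and differences between them were not tested.

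The 3 genes with the clearest interaction in each direction did not pass the test either. *Rreb1*, a zinc finger factor of RAS signalling, had 76.0, 76.1 and 68.5 CPM with vehicle and 56.1, 57.3 and 62.5 CPM with RCM1-NPFA. It had 53.5, 53.9 and 53.8 CPM with VCR and 66.6, 64.7 and 62.5 CPM with both drugs. RCM1 tumors were thus below their controls without vincristine and above them with it, and over both settings the log2 fold change was -0.03. The interaction was 0.59 (standard error 0.091, adjusted p = 0.293 in edgeR's test). *Kmt2d*, a histone H3K4 methyltransferase, and *Setd5*, a SET domain protein, had interactions of 0.56 and 0.61. In the opposite direction *Fhl1*, a LIM domain protein of muscle, had -1.66, *Rgs5*, a signalling regulator of pericytes, -0.89, and *Mgat3*, a glycosyltransferase, -0.75. *Fhl1* had 30.2, 33.9 and 39.0 CPM with vehicle, 44.4, 57.2 and 85.0 CPM with RCM1-NPFA, 79.1, 96.3 and 78.6 CPM with VCR and 49.999, 48.4 and 47.4 CPM with both. None of these 6 genes passed the threshold.

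Muscle fibre transcripts differed far more between single tumors than between the RCM1 arms. In bulk RNA a smaller share of a cell type and less RNA per cell cannot be told apart. The 22 genes of the mature muscle fibre list summed to 449.4, 312.2 and 331.3 CPM with vehicle and 4709.4, 14507.0 and 2245.6 CPM with VCR. They summed to 417.1, 559.3 and 21866.1 CPM with RCM1-NPFA and 2878.2, 5665.3 and 833.4 CPM with both drugs. The RCM1-NPFA tumor m9 was the highest and the VCR tumor m5 the next, whereas the other 2 RCM1-NPFA tumors were near vehicle. Every tumor given vincristine, alone or with RCM1-NPFA, was above every vehicle tumor and above m7 and m8. The sums thus also differed by vincristine, with m9 as the exception. *Myf6* and *Des* were also highest in m9 and m5, and whether these transcripts came from host muscle or from the tumor cells was not tested. *Myh4*, a fast myosin heavy chain of adult fibres and the most abundant of the list, was listed at 0 in m2 and m3, had 22.6 CPM in m1, and reached 4898 CPM in m9. All 22 genes had a fold change above 0 over both settings, but 0 of 22 had the same sign in the 2 settings, and 0 had an unadjusted p-value under 0.05 over both. Without vincristine 21 of the 22 were higher with RCM1-NPFA at that level (9.78% of all genes differed in either direction), and 21 had an unadjusted interaction p-value under 0.05 (13.8% of all genes), with none past adjustment. Their medians were 7.01 without vincristine, where many had almost no counts in the vehicle tumors m2 and m3, and -1.35 on top of it. Without m9 the median over both settings was -0.31, against 2.35 with it. The principal component that held 46% of the variance had muscle genes at its top, *Myh4*, *Ckm* (muscle creatine kinase) and *Pvalb* (parvalbumin), and was highest in m9 and m5.

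**Figure D4:**
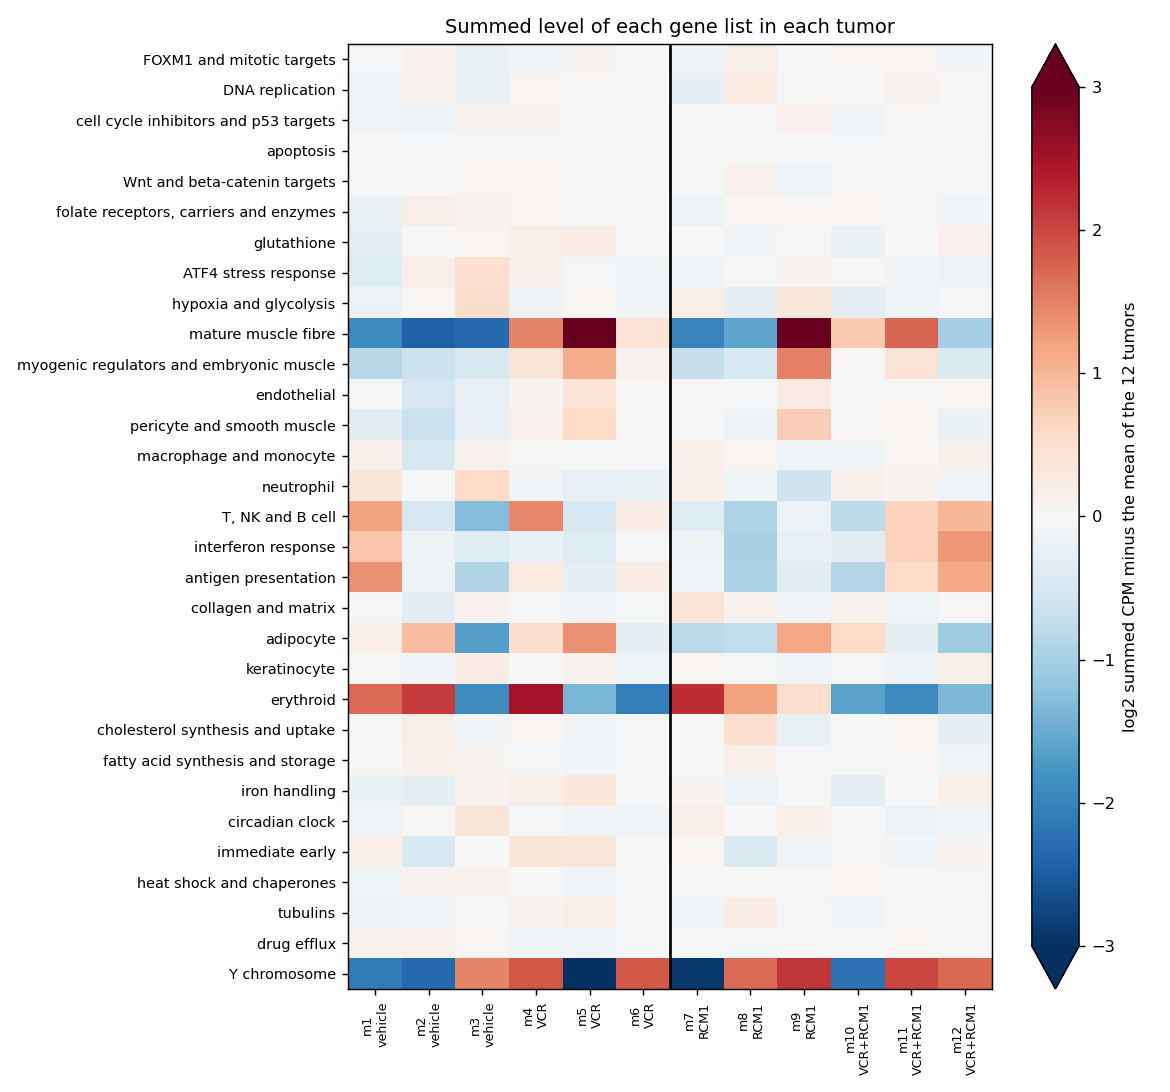
Summed CPM of each of 31 gene lists (rows) in each tumor (columns), as log2 of the sum minus the mean of the 12 tumors; red is above and blue below that mean, colours end at 3 in either direction, and the black line divides the 6 tumors without RCM1 (left) from the 6 with RCM1 (right). Muscle fibre sums are highest in m9 and m5, erythroid sums in m4 and m7, the Y chromosome list divides the tumors into 7 high and 5 low, and no list is of 1 colour on each side of the line.

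Endothelial genes mostly had fold changes above 0 for RCM1 without vincristine and below 0 on top of it, and none passed the test. Over both settings 19 of 20 were above 0 (50.4% of all genes were), with a median of 0.11, and 0 had an unadjusted p-value under 0.05. That median ran from 0.05 to 0.20 when each tumor was left out in turn. The median was 0.42 without vincristine and -0.14 on top of it, with 2 of 20 genes of the same sign. Without vincristine 12 of the 20 were higher at an unadjusted p-value under 0.05, beside 940 of all 17602 genes. An unadjusted interaction p-value under 0.05 was found for 12 of the 20, against 13.8% of all genes. *Pecam1* (CD31, the adhesion protein used to stain vessels) had 47.7, 35.4 and 40.9 CPM with vehicle and 54.1, 49.7 and 55.9 CPM with RCM1-NPFA, without overlap. It had 50.9, 66.0 and 47.2 CPM with VCR and 49.5, 52.0 and 49.8 CPM with both drugs, with overlap. The log2 fold change over both settings was 0.12 (standard error 0.11, 95% interval -0.12 to 0.37), and the exact permutation p was 0.27 (0.644 adjusted over the 5 genes). That fold change ran from 0.05 to 0.22 when each tumor was left out in turn. The tumor m5, highest in *Pecam1*, was also the highest in muscle RNA without RCM1. With a term for muscle RNA, and without m5 and m9, the fold change of *Pecam1* over both settings kept its sign and did not pass the threshold. The part of muscle RNA in the difference between the settings was not tested.

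Interferon response genes had the reverse pattern. Their median was -0.38 without vincristine and 0.82 on top of it, 0 of 20 had the same sign, and 15 of 20 had an unadjusted interaction p-value under 0.05, against 13.8% of all genes, with none past adjustment. On top of vincristine 8 of 20 were higher at this level, beside 454 of all 17602 genes. Over both settings 18 of 20 were above 0, with a median of 0.15, and without m12 it was -0.07. The list summed to 1095.7, 553.2 and 476.2 CPM with vehicle and 549.4, 314.2 and 514.3 CPM with RCM1-NPFA. It summed to 537.9, 473.8 and 602.0 CPM with VCR and 491.8, 986.1 and 1522.2 CPM with both drugs. The vehicle tumor m1 and the tumors m11 and m12 with both drugs stood above all others, and m10 of the same group did not. The antigen presentation genes were high in the same 3 tumors: their sum was 8783.5 CPM in m1, 5153.5 in m11 and 7523.2 in m12, and between 1776.8 and 4204.2 CPM in the other 9. Of these 16 genes, 15 were below 0 over both settings, with a median of -0.22, which was 0.34 without m1. The T, NK and B cell list summed to 59.7, 41.8 and 51.4 CPM in these 3 tumors and to 71.2 CPM in m4, and its part in the interferon values was not tested.

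Adipocyte genes had a fold change below 0 with RCM1 in 13 of 15 cases, with a median of -1.51, though 0 were called. Over all genes 50.4% were above 0. Of the 15, 3 were lower at an unadjusted p-value under 0.05 (1.14% of all genes were), and without vincristine 6 were lower and 1 higher at this level, against 9.78% of all genes in either direction. The median was -2.97 without m10 and -0.94 without m2. *Adrb3*, the adrenergic receptor of fat cells, had 0.93, 1.34 and 0 CPM with vehicle and 0.35, 0.53 and 0.16 CPM with VCR, and was at 0.12 CPM or less in all RCM1 tumors. The log2 fold change of this gene rests on very few counts. *Pck1* and *Plin1*, the lipid droplet coat protein, had -2.91 (standard error 1.01) and -2.07 (standard error 0.88) and a mean of 1.22 and 1.04 CPM. The most abundant adipocyte gene, *Car3*, did not follow, with 168 CPM in m9 and 0.24 CPM in m3, and the summed list overlapped between the arms, at 42.4 to 342.6 CPM without RCM1 and 63.6 to 297.5 CPM with it. The erythroid list, mostly globins, summed to 345.5 CPM in m7 and 423.1 CPM in m4 and to 17.7 CPM in m6, and its median of -1.58 over both settings was 0.17 without m4.

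All 20 collagen and matrix genes were above 0 over both settings, with a median of 0.14 that lay between 0.08 and 0.19 when each tumor was left out in turn. *Col1a1*, the main chain of type I collagen, had an unadjusted p-value under 0.05 (0.784% of all genes were higher at this level). It had 522, 425 and 496 CPM with vehicle, 1104, 833 and 589 CPM with RCM1-NPFA, 868, 858 and 718 CPM with VCR and 852, 656 and 963 CPM with both drugs. Its groups were apart without vincristine and overlapped on top of it, with a log2 fold change of 0.41 (standard error 0.18) over both. The median of the list was 0.28 without vincristine and 0.03 on top of it, and 5 of the 20 genes had an unadjusted interaction p-value under 0.05 (13.8% of all genes). *Fn1* (fibronectin), the most abundant member, had 2640 to 3822 CPM with vehicle and 2512 to 3780 CPM with RCM1-NPFA, and overlapped, with a log2 fold change of -0.10 without vincristine and 0.24 on top of it. Macrophage and monocyte genes had a median of 0.07, with 17 of 20 above 0, and *Adgre1* (F4/80), their surface marker, was at a mean of 60.3 TPM with vehicle, 52.7 with VCR, 58.9 with RCM1-NPFA and 67.5 with both drugs.

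Of the folate receptors that could bind the nanoparticles, *Folr1* was nearly absent as mRNA in these tumors and *Folr2* was not. *Folr1*, the receptor of epithelial tumors, had a mean of 0.132 TPM and at most 0.385 TPM, too low to be tested. *Folr2*, the receptor found on macrophages, had 40.1 TPM, and *Slc19a1*, the reduced folate carrier, 24.7 TPM. With RCM1, *Folr2* had a log2 fold change of 0.27 (95% interval -0.17 to 0.71) and *Slc19a1* -0.08 (-0.31 to 0.15). *Folr2* was 0.66 without vincristine and -0.13 on top of it. *Mthfd2* and *Shmt2*, enzymes that load folate with 1-carbon units, had 0.01 and -0.04. The list of 18 tested genes had a median of -0.03 with 0 at an unadjusted p-value under 0.05.

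Genes of cell death were nearly level. *Bmf* was the 1 of 17 apoptosis genes with an unadjusted p-value under 0.05, against 1.92% of all genes, and the median of the list was -0.02. The cell cycle inhibitor and p53 target list had a median of 0.03, with 0 of 17 at that level. Among Wnt and beta-catenin targets, *Myc* had -0.18 (standard error 0.077, unadjusted p = 0.0407 in edgeR's test), with 199 to 279 CPM without RCM1 and 207 to 226 CPM with it, and the list of 10 had a median of 0.09. Of the muscle regulators, *Myf5* had -0.22 (standard error 0.081), with 52.6 to 69.9 CPM without RCM1 and 48.9 to 59.9 CPM with it. It overlapped between the arms, and *Chrng*, the embryonic subunit of the acetylcholine receptor, had -0.59 at a mean of 0.51 CPM.

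Immediate early genes, the transcripts that cells make within minutes of a stimulus, were below 0 in 14 of 15 cases, with a median of -0.17 that lay between -0.23 and -0.04 when each tumor was left out. *Dusp1*, a phosphatase that ends MAP kinase signals, had 50.2, 33.9 and 31.4 CPM with vehicle and 30.4, 25.0 and 23.5 CPM with RCM1-NPFA. It had 64.9, 44.5 and 24.5 CPM with VCR and 26.6, 31.0 and 35.3 CPM with both drugs. The arms overlapped, and the log2 fold change was -0.54 (standard error 0.20). Of the circadian clock genes, *Per1*, a repressor of the clock, had -0.73 (standard error 0.26), with 42.0 to 132 CPM without RCM1 and 29.95 to 58.5 CPM with it. *Hlf*, an output factor of the clock, had -1.20 (standard error 0.42), with 2.19 to 9.91 CPM without RCM1 and 0.85 to 4.37 CPM with it. The median of the 17 clock genes was 0.07. The hour at which tumors were taken is not given in the sources used here.

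In the remaining lists 0 genes were called. The median log2 fold change was -0.02 for hypoxia and glycolysis, 0.02 for cholesterol synthesis and uptake, -0.03 for fatty acid synthesis and storage, -0.04 for iron handling, 0.02 for heat shock and chaperones, -0.02 for tubulins and 0.04 for drug efflux. With each tumor left out in turn these medians stayed between -0.12 and 0.12, and except for fatty acid synthesis and storage their sign changed. For tubulins the median was 0.12 without vincristine and -0.18 on top of it, and 4 of 16 genes had the same sign. Of these 16 genes, 7 had an unadjusted interaction p-value under 0.05 in edgeR's test (13.8% of all genes), with none past adjustment. *Angptl4*, an inhibitor of lipoprotein lipase, had -0.36 (standard error 0.16), and *Abcg2*, a drug efflux pump, 0.24 (standard error 0.11), both with an unadjusted p-value under 0.05 in edgeR's test and overlapping arms. The pericyte and smooth muscle list had a median of 0.15, the neutrophil list -0.25 with *Cxcl2* (a neutrophil chemokine) at -0.81 (standard error 0.30), the T, NK and B cell list -0.24 and the keratinocyte list -0.07. These medians rested on single tumors: the pericyte and smooth muscle median was -0.02 without m9, the neutrophil median -0.10 without m2 and -0.45 without m6, and the T, NK and B cell median 0.22 without m1 and -0.44 without m5. The keratinocyte median lay between -0.13 and 0.0082 when each tumor was left out. The myogenic regulator and embryonic muscle list had 0.27, with -0.33 as its lowest value when a tumor was left out. Y-linked transcripts were found in 3 of the 6 tumors without RCM1 and 4 of the 6 with it, with *Ddx3y* between 4.34 and 7.08 CPM in these 7 and at most 0.15 CPM in the other 5. Those 5 were m1, m2, m5, m7 and m10, so m3 was the only vehicle tumor with Y-linked transcripts. *Xist*, made from the inactive X chromosome, was at 5.44 to 9.38 TPM in the 5 and at most 0.0583 TPM in the 7.

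**Figure D5:**
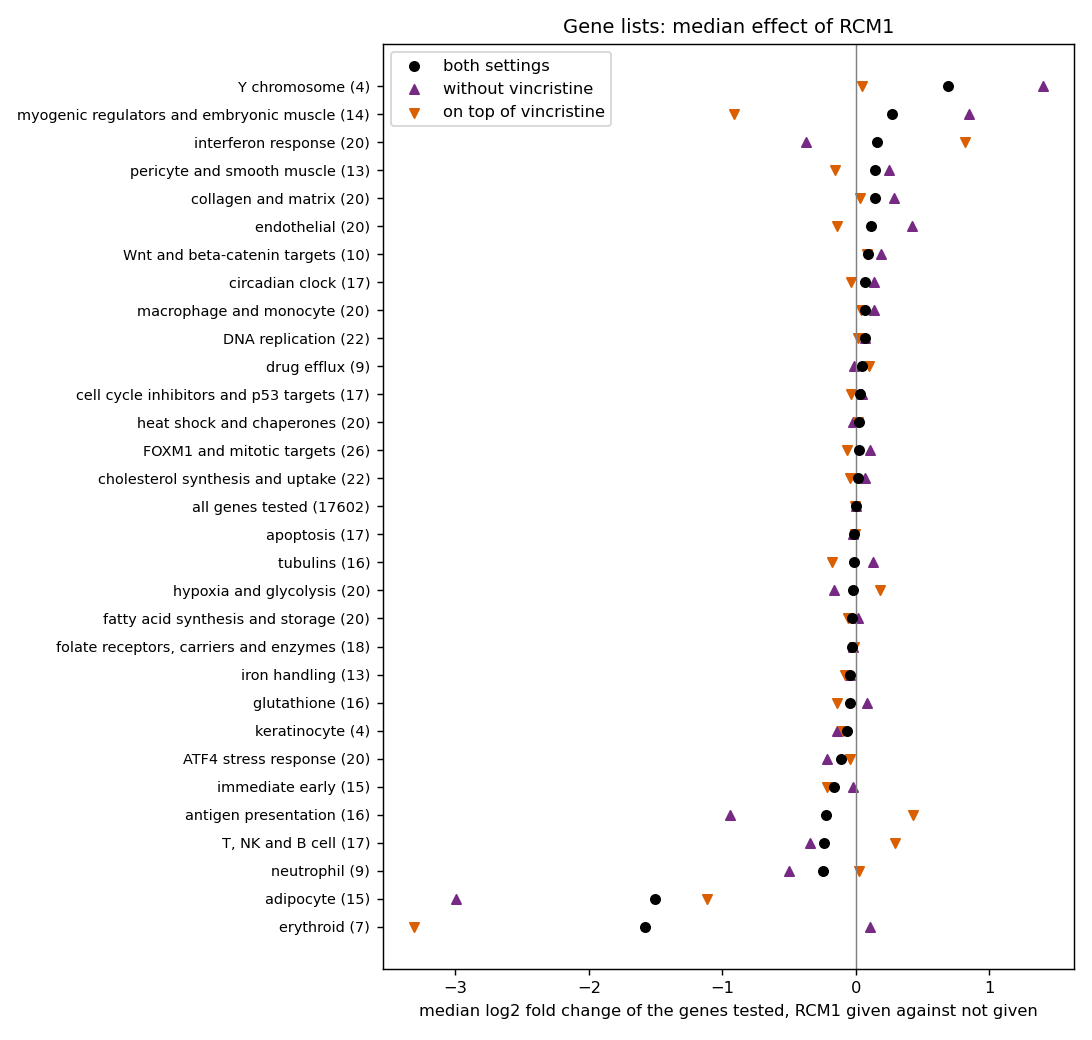
Median log2 fold change of the tested genes of each list (number in brackets), RCM1 given against not given: black points are both settings, triangles pointing up are without vincristine and triangles pointing down on top of vincristine. The mature muscle fibre list (2.35 over both settings) is left out, because many of its genes are near 0 counts in the vehicle tumors m2 and m3. Most lists lie near the value of all genes (0.00), adipocyte (-1.51) and erythroid (-1.58) lie lowest, and for endothelial and interferon genes the 2 settings lie on opposite sides of 0.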

How the data were processed

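RNA-seq was done on 12 dissected Rd76-9 tumors, 3 per treatment group. Per the labels and the study's methods, the authors made poly-A libraries with a stranded kit but call them non-stranded, and reads of antisense neighbours may therefore be mixed. The authors quantified transcripts of GRCm38 with kallisto (version not given in the sources used here). The values they deposited per transcript were an estimated count, which is neither whole nor normalized, a TPM level and the other measure used here, the effective length. The submitters' processing notes also name DESeq2.

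All 120299 transcripts were matched to 38898 RefSeq genes, and the deposited estimated counts were summed per gene and rounded. Genes passing filterByExpr with a minimum count of 10 (17602) were TMM-normalized and tested with edgeR 4.0.16 (quasi-likelihood) in R 4.3.3. The model held RCM1 and vincristine. The effects within each vincristine setting, and the interaction, came from 1 fit of 4 groups. P-values were adjusted by Benjamini-Hochberg over all genes, with a threshold of 0.1. CPM were scaled by TMM, and list sums were compared as log2(CPM + 0.1). *Foxm1*, *Chac1*, *Mki67*, *Pecam1* and 1 further gene, which is not reported here, were compared as well by exact permutation tests (two-sided) in Python 3.11.15, with p-values adjusted over these 5 genes. No p-value is given for a gene list or its sum. Scripts were tested on simulated data.

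Alternatives were other size factors, no filter or a mean of 50 counts, the DESeq2 1.42.0 Wald test, limma-voom (limma 3.58.1), robust empirical Bayes, a threshold of 0.05, transcript length offsets, a 4-group fit, no vincristine term, terms for muscle fibre or Y-linked transcripts, other pseudocounts (0.01 and 1), leaving out m5 and m9 together, and leaving out each tumor. The correlation without m5 and m9, the variance shares at a mean of 50 counts and the pericyte list without *Des* were added after seeing the data.

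The named genes were the 5 above, in each direction the 10 genes with the smallest unadjusted p-values among those with a mean of at least 1 CPM and the same sign in both settings (none passed the threshold), the 3 genes in each direction with the clearest interaction, and members of 31 gene lists: the most abundant, and those with an unadjusted p-value under 0.05. Other list members were named for their roles. The comparison, its rules and the gene lists were chosen with earlier results of these data known. Depth was even between arms. The closest 2 libraries of the same group still differed by a mean chi-squared of 14.6 per gene, so none was a repeat of another within its group. Of all pairs the closest was across groups, m6 and m11, at 12.03.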

Additional observations from a re-analysis of the deposited data

Results flagged for a closer look

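Among 124 sets of 6 tumors with or without RCM1, 6 held a tumor far from the other 5. Each set was 1 gene list or 1 named gene in 1 arm, without the genes named only as list members. Chance flags about 1 in 20 such sets. Among the tumors without RCM1, the vehicle tumor m3 had 52.12 CPM of *Phlda1*, above 35.98 to 40.74 CPM in the others. The same tumor had a sum of 10001.45 CPM for the hypoxia and glycolysis list, against 6159.586 to 7256.731 CPM, and of 750.4947 CPM for the circadian clock list, against 533.0491 to 605.0328 CPM. The vehicle tumor m1 stood apart in the interferon response list, with 1095.656 CPM against 473.7993 to 601.9988 CPM. The vehicle tumor m2 had the lowest macrophage and monocyte sum, 4815.367 CPM against 6573.942 to 7504.765 CPM. Among the tumors with RCM1, m9 had 1109.965 CPM for the pericyte and smooth muscle list, against 586.1216 to 691.6166 CPM. *Des*, which muscle also makes, gave 572.7 CPM of this sum, and without it m9 had 537.3 CPM, within the 490.2 to 652.3 CPM of the other RCM1 tumors.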

How the results depend on the processing

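The count of genes called for the RCM1 main effect was 0 in each of the 26 alternatives run. DESeq2 in place of edgeR gave 277 genes for RCM1 without vincristine, 11 on top of vincristine, 461 for the interaction and 3 for vincristine, and the cause was not tested. With each tumor left out in turn, edgeR gave 0 to 8 genes for RCM1 without vincristine, 0 for RCM1 on top of vincristine, 0 to 1 for the interaction and 0 to 320 for vincristine. For vincristine 259 genes were called without m5 and m9. The correlation of the RCM1 effects was -0.615 at a mean of at least 50 counts, -0.190 without m5 and m9, and -0.540 to -0.193 with each tumor left out. Differences in summed list levels (RCM1 minus no RCM1, log2) that changed sign when a tumor was left out ranged from -0.0199 to 0.0631 for the FOXM1 and mitotic targets list, -0.0299 to 0.11 (DNA replication), -0.00976 to 0.0514 (cell cycle inhibitors and p53 targets), -0.0016 to 0.014 (apoptosis), -0.0726 to 0.0277 (folate receptors, carriers and enzymes), -0.21 to 0.000716 (ATF4 stress response), -0.13 to 0.0405 (hypoxia and glycolysis), -0.37 to 1.06 (mature muscle fibre) and, in the other lists, -0.23 to 0.32 (myogenic regulators and embryonic muscle), -0.0487 to 0.11 (macrophage and monocyte), -0.47 to 0.16 (T, NK and B cell), -0.0938 to 0.31 (interferon response), -0.41 to 0.15 (antigen presentation), -0.95 to 0.38 (erythroid), -0.11 to 0.0742 (cholesterol synthesis and uptake), -0.0524 to 0.00125 (fatty acid synthesis and storage), -0.11 to 0.0101 (iron handling), -0.0455 to 0.0732 (circadian clock), -0.0126 to 0.0453 (heat shock and chaperones), -0.0676 to 0.0103 (tubulins), -0.00459 to 0.0181 (drug efflux), -0.0299 to 1.62 (Y chromosome). Without m5 and m9 the sign also changed for -0.00715 in cell cycle inhibitors and p53 targets, -0.0104 in mature muscle fibre, -0.0887 in myogenic regulators and embryonic muscle, -0.00113 in interferon response, 0.0573 in cholesterol synthesis and uptake, -0.00985 in circadian clock, 0.0198 in tubulins, -0.00575 in drug efflux, -0.49 in Y chromosome. No paired analysis was possible because the tumor numbers m1 to m12 are unique and nothing links a tumor of one group to a tumor of another. With 6 tumors per arm and 70.9% of the variance of the median gene between tumors of the same group, small effects were not resolvable, and levels under about 1 CPM rest on few counts. The median 95% interval reached 0.25 on the log2 scale to either side over all genes and 0.17 for genes of at least 10 CPM.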
